A study of Mus musculus with 9 samples.

Results

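The cytoplasmic ribosomal proteins are the protein building blocks of the ribosome outside the mitochondria. The family was taken as every row of the deposited gene table with an Rpl or Rps symbol of the numbered form, plus the stalk genes Rplp0, Rplp1 and Rplp2, which gave 80 of 20778 rows, 49 of the large subunit and 31 of the small. The rows were chosen by symbol alone, so no measured value enters the rule, but the family was proposed with earlier results of these comparisons known. A mean of at least 10 over all libraries was needed for testing, and 46 large and 31 small subunit members reached it. The other 3 were Rpl3l and Rpl39l, which reached at most 15 and 5 in any library, and Rpl10l, listed at 0 in every library.

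Each ribosome carries a small subunit, which reads the mRNA, and a large subunit, which joins the amino acids. Growing cells make the ribosomal proteins in near equal numbers, and their mRNAs are among the most abundant of the cell. Most of these mRNAs begin with a pyrimidine tract, the terminal oligopyrimidine (TOP) motif, through which mTOR signalling and the protein LARP1 set their translation and stability.

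RNA of 9 bulk libraries was measured, 3 in each of 3 groups. In 3D bioink, mCherry-labelled GL261 mouse glioblastoma cells grew in a fibrin gel with primary astrocytes, microglia, pericytes and endothelial cells, which had been isolated from brains of male C57BL/6 mice aged 6 to 10 weeks. In 2D culture the same 5 cell kinds grew on a dish, and GL261 was seeded at 1000000 cells per ml in both. The tumours were brains of male C57BL/6 mice with an intact immune system, implanted at 7 weeks of age with 50000 mCherry-labelled GL261 cells in the striatum and resected on day 14. The protocol names 5 mice, and the labels do not say which of them gave the 3 tumour libraries, nor whether the 3 libraries of a culture group were separate cultures. The p-values below therefore describe library-to-library spread alone, and that spread may be technical. Digestion before extraction is recorded for the bioink alone, where fragments spent 3 h in collagenase II (600 U per ml) and passed a 70 µm mesh, so handling and group cannot be told apart. Values are normalized counts that the authors rounded to whole numbers, and their depth is unknown.

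A pyrimidine run near the start is a feature that the symbol rule did not use. It is shown here because the TOP motif is the element this family is known for, but such a run need not be a TOP motif. RefSeq windows of 300 bases (GRCm38.p6, 250 before and 50 after each start) were matched for 59 of the 80 members, in 71 windows. A run of at least 8 C or T bases lying within, or reaching into, the 20 bases on each side of the start was present in 47.9% of member windows and in 20.5% of the 21192 windows of all other protein-coding genes. Of the 24 tested members with a mean of at least 100, a single window and such a run, the 4 with the lowest and the 4 with the highest log2 fold changes in 3D bioink against tumours follow, as 15 bases on each side of the start. Capitals mark the part of the run inside these 30 bases.
Rps27 (chr3:90213634-90213663, minus strand): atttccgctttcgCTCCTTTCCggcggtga
Rpl14 (chr9:120571502-120571531, plus strand): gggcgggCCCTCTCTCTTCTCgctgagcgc
Rplp2 (chr7:141447636-141447665, plus strand): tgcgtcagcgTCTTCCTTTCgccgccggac
Rpl13a (chr7:45128731-45128760, minus strand): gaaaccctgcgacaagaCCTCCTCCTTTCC
Rpl35 (chr2:39005117-39005146, minus strand): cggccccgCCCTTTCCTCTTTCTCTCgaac
Rpl4 (chr9:64173372-64173401, plus strand): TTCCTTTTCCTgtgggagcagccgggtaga
Rps6 (chr4:86857353-86857382, minus strand): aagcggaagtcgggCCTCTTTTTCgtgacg
Rpl31 (chr1:39367836-39367865, plus strand): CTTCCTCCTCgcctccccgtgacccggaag
The first 4 of these members had log2 fold changes between -1.59 and -1.34 and the last 4 between -0.68 and -0.65. All 8 were drawn from members with a run, so they show its form and not its relation to the fold change. In Rpl4 and Rpl31 the marked bases lie wholly before the annotated start. Transcript starts were not measured here, so whether a run is part of the mRNA is not known. Among tested members with a window, the median log2 fold change in 3D bioink against tumours was -0.98 for the 31 with a run and -0.87 for the 25 without. The letters CGGAAG, the core of sites for ETS factors such as GABP, were found on either strand in 60.6% of member windows and in 21.0% of the other windows. The 39 tested members with that core had a median of -0.87, and the 17 without it had -1.22. In 3D bioink against 2D culture the medians were -0.91 with and -0.92 without the run, and -0.88 with and -0.95 without the core. In 2D culture against tumours they were -0.19 with and -0.07 without the run, and -0.09 with and -0.26 without the core. These splits are a description with no test.

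As a share of everything in a library, the family was lower in 3D bioink than in either other group. Large subunit members made up 1.67%, 1.61% and 1.66% of the 3 bioink totals, 2.99%, 2.85% and 2.65% of the 2D culture totals, and 3.00%, 3.02% and 3.07% of the tumour totals. Small subunit members made up 0.911%, 0.764% and 0.805% in 3D bioink, 1.38%, 1.29% and 1.21% in 2D culture, and 1.42%, 1.38% and 1.42% in tumours. No bioink library reached any library of the other groups, while 2D culture library 1 lay just below the lowest tumour library in each subunit.

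**Figure D1:**
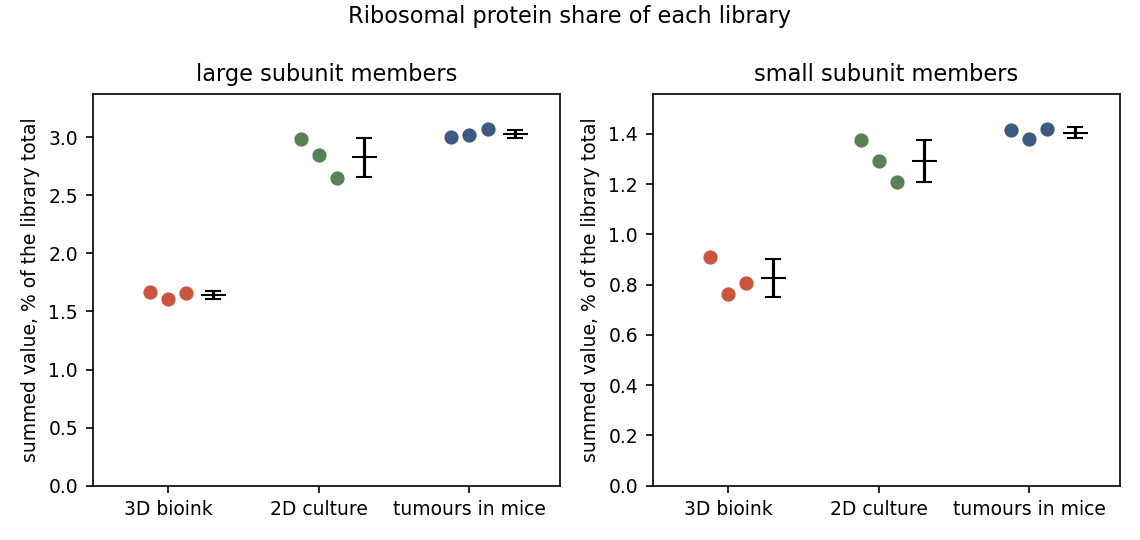
Summed values of the large (left) and small (right) subunit members as a percent of the deposited library total, 1 point per library, with the group mean and SD (n = 3) as bars. The bioink libraries lie at 1.61% to 1.67% and 0.764% to 0.911%, below all 2D culture and tumour libraries.

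The mean share of both subunits was 2.47% ± 0.10 in 3D bioink, 4.12% ± 0.25 in 2D culture and 4.44% ± 0.05 in tumours (SD, n = 3 each). The bioink share was 0.557 of the tumour share and 0.599 of the 2D culture share. Rplp0 alone supplied 6.27% to 8.89% of the family's sum in 3D bioink, 9.24% to 11.6% in 2D culture and 10.9% to 11.8% in tumours, and without it the bioink share was 0.580 of the tumour share. These shares are a description with no test. The sum of the small subunit divided by that of the large was 0.547, 0.476 and 0.486 in 3D bioink, 0.461, 0.454 and 0.456 in 2D culture and 0.471, 0.457 and 0.462 in tumours. The large subunit sum includes Rplp0, whose part of the family was smallest in 3D bioink. Without Rplp0 this ratio is not given, so it does not show an imbalance of the subunits. In bulk RNA, fewer cells with a given mRNA and less of it per cell cannot be told apart.

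Deposited library totals ran between 13548461 and 13683978 in 3D bioink, 15572800 and 15711632 in 2D culture, and 16320090 and 16388074 in tumours. The cell mixtures differed as well. The 13 microglia markers summed to 1237 to 1265 in 3D bioink, 708 to 778 in 2D culture and 48378 to 52228 in tumours, with Fcrls at 0 in every bioink library and C1qa at 0 in every 2D culture library. The 11 markers of infiltrating macrophages and monocytes summed to 2088 to 2430 in 3D bioink, 1391 to 1485 in 2D culture and 33364 to 34624 in tumours, and Ly6c2 was at 0 in all culture libraries. The 7 proliferation genes, among them Mki67, summed to 11840 to 12193 in 3D bioink, 24784 to 25214 in 2D culture and 12358 to 12878 in tumours. The 9 pericyte markers summed to 11979 to 12861 in 3D bioink, 13628 to 13841 in 2D culture and 27105 to 28987 in tumours. Kcnj8 was at 0 in 2D culture. Of the 7 pericyte markers tested, 4 were higher and 2 lower in 3D bioink against tumours. Against 2D culture 4 were higher and 1 lower, so the sums do not give the direction of each gene. Of all tested genes, 27.1% were higher and 37.3% lower against tumours, and 27% and 32.2% against 2D culture. The 9 astrocyte markers, none at 0 in any group, summed to 6932 to 7414 in 3D bioink, 6264 to 6491 in 2D culture and 5427 to 5838 in tumours. Of these 9 astrocyte genes, 4 were higher and 2 lower in 3D bioink against tumours. The 10 endothelial markers summed to 5438 to 7815 in 3D bioink, 4826 to 5164 in 2D culture and 6052 to 6437 in tumours. Erg was at 0 in 2D culture and tumours. Of the 8 endothelial markers tested, 2 were higher and 3 lower in 3D bioink against tumours. The 9 oligodendrocyte markers summed to 9972 to 10640 in 3D bioink and 11277 to 11564 in 2D culture, both without Mag, and 13023 to 14580 in tumours. Of these 9 genes, 3 were higher and 5 lower in 3D bioink against tumours. The 8 neuron markers summed to 919 to 1183, with no gene at 0 throughout, in 3D bioink, to 1689 to 1781 in 2D culture, where Rbfox3 and Slc17a7 were at 0, and to 4807 to 5048 in tumours, where Rbfox3 and Nefl were at 0. Only 2 of these 8 genes were tested, and in 3D bioink against tumours 1 was higher and 1 lower. The 10 T and NK cell markers summed to 199 to 255 in 3D bioink, 80 to 97 in 2D culture and 588 to 689 in tumours, with Cd2, Nkg7 and Gzmb at 0 in both cultures. The 4 red blood cell genes summed to 41 to 66 in 3D bioink, 65 to 74 in 2D culture and 215 to 290 in tumours. The part of these differences in the ribosomal protein results was not tested.

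Against tumours, most members of both subunits were lower in 3D bioink. In the large subunit 43 of 46 tested members fell and 0 rose, and the median log2 fold change was -1.02. In the small subunit 26 of 31 fell and 0 rose, with a median of -0.98. Over all 13773 tested genes, limma with Benjamini-Hochberg adjustment called 37.3% lower and 27.1% higher, with a median log2 fold change of -0.11. At an unadjusted p under 0.05 no member of either subunit was higher, 43 large and 27 small subunit members were lower, and no other tool was run. The share of all tested genes at an unadjusted threshold is not given, here or below. Among the 3511 other genes with a mean of at least 1000, which are closer to the family in level, the median was -0.27 and 53.4% were lower. Among the members that did not pass were Rpl7, Rpl36a, Rps27l, Rps23, Rps7, Rps4l and Rps12, and of these only Rpl7 and Rpl36a had values above 1000 in tumours. Under 5 other scalings of the libraries the medians stayed between -0.92 and -0.68 for the large and between -0.88 and -0.71 for the small subunit. Bioink library 1 had the lowest limma array weight (0.236, against 4.96 for bioink library 3), and without it 44 large and 28 small subunit members fell. Without bioink library 2 the falls numbered 40 and 24. Under quantile normalization they numbered 36 and 23, and under equal totals or equal upper quartiles 37 and 24.

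**Figure D2:**
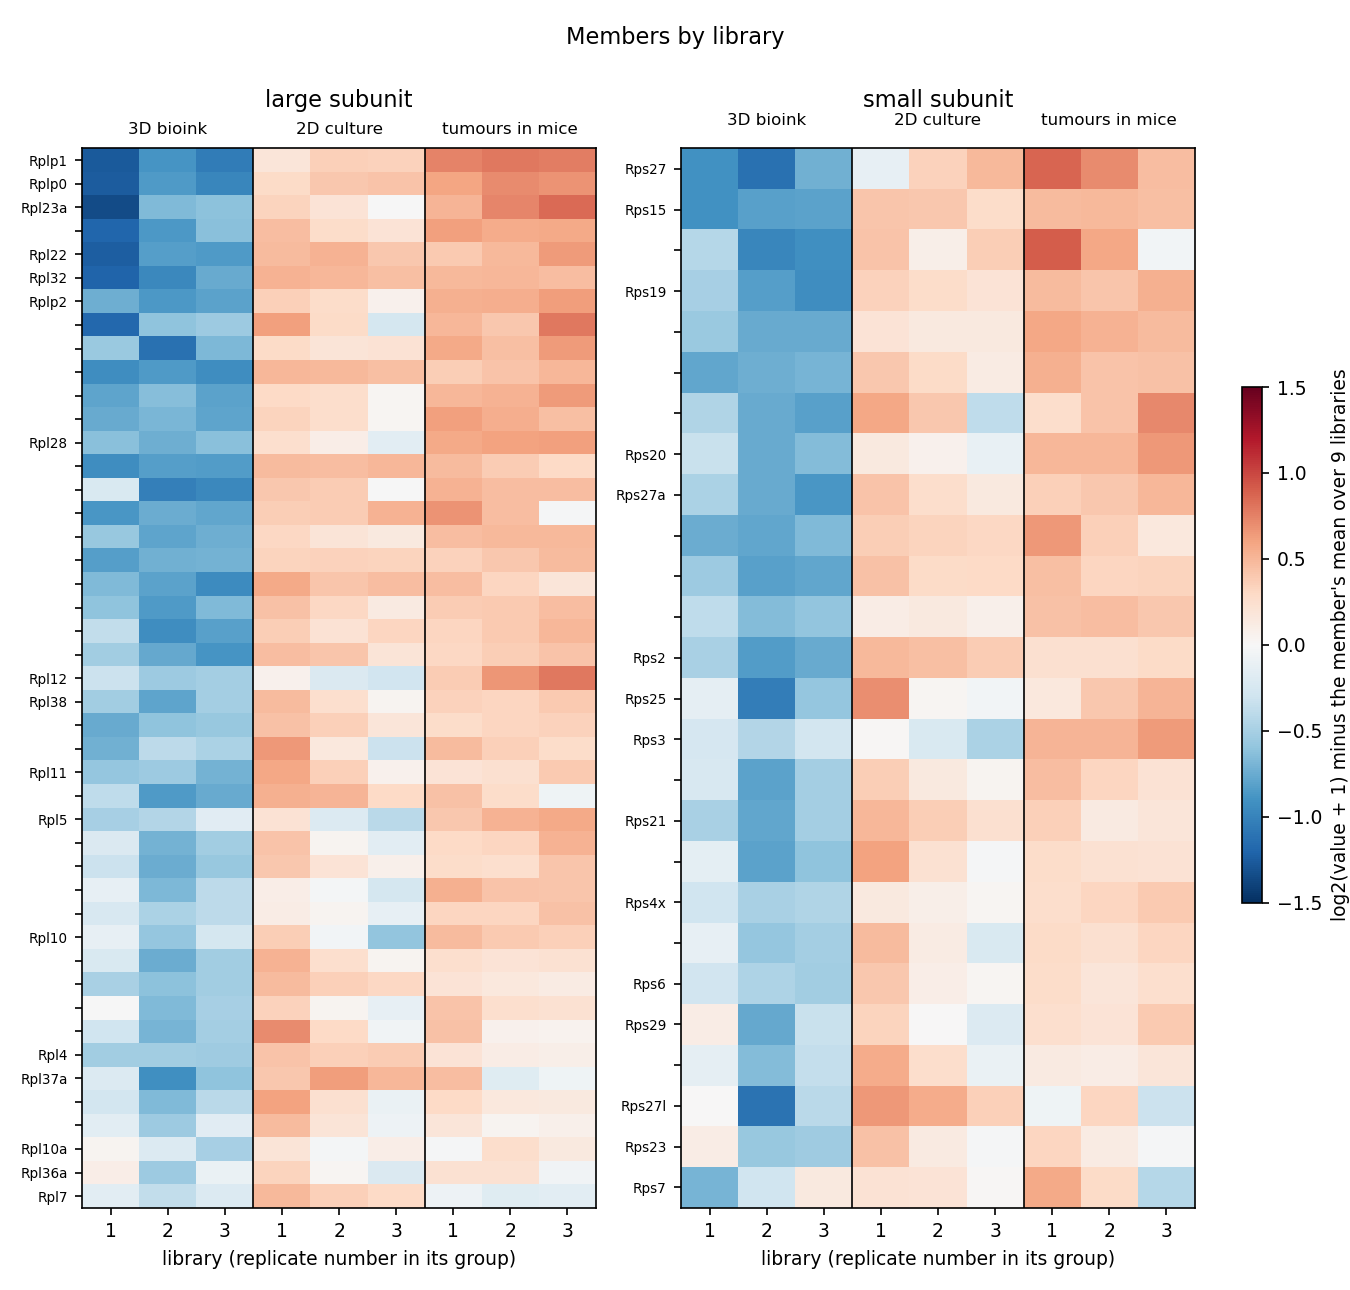
71 of the 74 tested members with a mean of at least 100 (rows, some labelled by name, the other 3 not shown) in each library (columns), as log2(value + 1) minus the member's mean over 9 libraries, for the large (left) and small (right) subunit, ordered by the log2 fold change in 3D bioink against tumours with the lowest on top. The bioink columns are blue in most rows, and the rows at the bottom, such as Rpl7 and Rps7, are pale.

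The stalk of the large subunit, which recruits the translation GTPases, held the lowest value of that subunit. Rplp1 (chr9:61913283-61914510) had normalized counts of 7510, 9676 and 8688 in 3D bioink, 20341, 22910 and 22751 in 2D culture, and 30017, 31063 and 30631 in tumours. The 3 groups did not overlap. It fell by 1.83 ± 0.09 (SE) on the log2 scale against tumours, with a limma adjusted p of 9.79e-08, and by 1.36 ± 0.09 against 2D culture (adjusted p 8.13e-07). Rplp0 (chr5:115559467-115563729), which anchors the stalk, had 21906, 28832 and 26399 in 3D bioink, 63308, 68954 and 69938 in 2D culture, and 78424, 85168 and 83024 in tumours. Its bioink mean was thus 3.20 times below that of the tumours, and it fell by 1.69 ± 0.09 (adjusted p 2.66e-07). Rplp2, the partner of Rplp1 whose start is printed above, had 10822, 9843 and 10280 in 3D bioink, 22988, 21717 and 18741 in 2D culture, and 25927, 26096 and 27780 in tumours. It fell by 1.37 ± 0.08 against tumours, with a limma adjusted p of 2.56e-07. Per kilobase of transcript, the levels of these 3 genes were 17284 to 24501 in 3D bioink, 44090 to 50234 in 2D culture and 60534 to 63185 in tumours. The medians over the 76 members with a known length were 4599 in 3D bioink, 8980 in 2D culture and 9094 in tumours.

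Other large subunit members moved by less or by as much. Rpl23a, near the exit of the peptide tunnel, had 4464, 7201 and 7406 in 3D bioink against 16192, 18809 and 20446 in tumours, and fell by 1.57 ± 0.18 (limma adjusted p 3.99e-05). Rpl22, which in mice has a close paralog in Rpl22l1, had 5182, 6865 and 6756 in 3D bioink against 15978, 17096 and 18937 in tumours, a fall of 1.48 ± 0.11 (adjusted p 1.47e-06). Rpl32 had 1786, 2111 and 2426 in 3D bioink, 5912, 5824 and 5636 in 2D culture and 5778, 5805 and 5659 in tumours. Its culture and tumour libraries overlapped, and all bioink libraries lay below them, by 1.46 ± 0.09 against tumours (adjusted p 6.49e-07) and 1.47 ± 0.09 against 2D culture (adjusted p 7.72e-07). Rpl5 and Rpl11, which with the 5S rRNA bind Mdm2 when ribosome assembly fails, fell by 0.87 ± 0.14 (adjusted p 0.000484) and 0.89 ± 0.11 (adjusted p 8.05e-05) against tumours. Rpl38, known from mouse skeletal patterning, fell by 0.96 ± 0.11 (adjusted p 3.46e-05). Rpl10, which joins late in the maturation of the large subunit, fell by 0.73 ± 0.20 (adjusted p 0.0102), a call lost under 4 of 22 alternatives with an adjusted p between 0.000802 and 0.433.

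Rpl7 had the log2 fold change nearest to 0 among large subunit members in 3D bioink against tumours. It had 9042, 7803 and 8717 in 3D bioink, 14073, 12908 and 12437 in 2D culture and 9564, 8909 and 9026 in tumours, so that bioink and tumour libraries overlapped and the 2D culture libraries stood above both. That log2 fold change was -0.11 ± 0.07 with a limma adjusted p of 0.190, and it became 0.30 under quantile normalization. Rpl36a had 1435, 919 and 1250 in 3D bioink, 1686, 1368 and 1152 in 2D culture, and 1577, 1568 and 1295 in tumours, with overlap between all groups. Its log2 fold change against tumours was -0.32 ± 0.18 (adjusted p 0.142). Rpl10a fell by 0.36 ± 0.13 (adjusted p 0.0336), a call lost under 11 of 22 alternatives (adjusted p between 0.000958 and 0.544). The adjusted p of Rpl10a was 0.0632 and 0.116 without bioink library 2 and 3, and 0.114 and 0.0775 without tumour library 2 and 3. Rpl37a fell by 0.65 ± 0.20 (adjusted p 0.0169), a call lost under 6 of 22 alternatives (adjusted p between 0.0024 and 0.123), among them without bioink library 2 (0.0613) and without tumour library 1 (0.0628).

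In the small subunit, Rps15, a protein of its head, had 3409, 3645 and 3650 in 3D bioink, 8538, 8421 and 7728 in 2D culture, and 8902, 8978 and 8766 in tumours. The groups did not overlap, and Rps15 fell by 1.32 ± 0.05 against tumours (limma adjusted p 3.25e-08). Its difference between 2D culture and tumours did not pass (-0.11 ± 0.05, adjusted p 0.0972). Rps27, a zinc finger protein, had 461, 398 and 525 in 3D bioink, 792, 1099 and 1216 in 2D culture, and 1580, 1413 and 1191 in tumours. It had the lowest log2 fold change of the small subunit members with a mean of at least 100, -1.59 ± 0.17 (adjusted p 2.37e-05), and its 2D culture and tumour libraries overlapped. Rps19, which is mutated in human Diamond-Blackfan anaemia, fell by 1.23 ± 0.10 (adjusted p 3e-06), and Rps27a, made as a fusion with ubiquitin, by 1.12 ± 0.10 (adjusted p 8.76e-06). Rps6, the substrate of the S6 kinases, had 4025, 3565 and 3421 in 3D bioink, 6472, 5265 and 5011 in 2D culture, and 5938, 5546 and 5847 in tumours, and fell by 0.66 ± 0.10 against tumours (adjusted p 0.0002). Rps25, needed by some viral internal ribosome entry sites, fell by 0.94 ± 0.25 at a lower level of 289, 154 and 212 in 3D bioink against 355, 419 and 451 in tumours (adjusted p 0.0085). Rps29 fell by 0.62 ± 0.20 (adjusted p 0.0212), a call lost under 7 of 22 alternatives (adjusted p between 0.00181 and 0.15). The adjusted p of Rps29 was 0.0659 and 0.051 without bioink library 2 and 3, and 0.0665 without tumour library 3.

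The paralogs and several other members were listed low. Rps27l, a paralog of Rps27 and a p53 target, had 453, 210 and 341 in 3D bioink, 713, 668 and 580 in 2D culture and 431, 567 and 360 in tumours. Bioink and tumours overlapped (log2 fold change -0.48 ± 0.26, limma adjusted p 0.133), while against 2D culture it fell by 1.03 ± 0.26 (adjusted p 0.00685). Rps4l, a copy related to Rps4x, had 14, 21 and 25 in 3D bioink, 31, 12 and 18 in 2D culture, and 29, 5 and 0 in tumours, and passed in no comparison of the deposited values (adjusted p between 0.142 and 0.98). Relative to the family median, its adjusted p in 3D bioink against tumours was 0.028. Rps7 had 164, 217 and 297 in 3D bioink against 396, 327 and 198 in tumours (-0.42 ± 0.27, adjusted p 0.196). Rps12 was listed at 0, 6 and 12 in 3D bioink and at 36, 4 and 19 in tumours. Genes of this family have many processed copies, and reads may have been split between them, so low or uneven levels of single members are uncertain.

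Set against 2D culture, which was set up with the same 5 cell kinds but differed in marker sums, the pattern in 3D bioink was similar in size. In the large subunit 40 of 46 tested members fell and 0 rose (median log2 fold change -0.95). In the small subunit 26 of 31 fell and 0 rose (median -0.88). Over all tested genes limma called 32.2% lower and 27% higher, with a median of -0.02, and among other genes with a mean of at least 1000 the median was -0.29 and 53.6% were lower. At an unadjusted p under 0.05 no member was higher, while 42 large and 26 small subunit members were lower. Without bioink library 1 the falls numbered 42 and 27. Under the 5 other scalings the medians lay between -0.86 and -0.65 for the large subunit and between -0.79 and -0.65 for the small. The comparisons against tumours and against 2D culture share the bioink libraries.

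The largest falls against 2D culture were in Rpl32, Rpl22 (1.44 ± 0.11, limma adjusted p 2.17e-06) and Rplp0 (1.40 ± 0.09, adjusted p 1.14e-06) of the large subunit. In the small subunit, Rps15 fell by 1.20 ± 0.05 (adjusted p 8.39e-08). Rps2, the most abundant small subunit member, fell by 1.13 ± 0.08, with 16291, 12803 and 13522 in 3D bioink against 32165, 31198 and 29766 in 2D culture (adjusted p 1.78e-06).

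Other members overlapped between the cultures. Rps3, which lines the mRNA entry channel and also takes part in DNA repair, had 11186, 9766 and 10965 in 3D bioink, 13440, 11356 and 9541 in 2D culture, and 18933, 18888 and 20658 in tumours. Both cultures lay below the tumours, and their difference did not pass (-0.09 ± 0.11, limma adjusted p 0.490). Rpl5 had 3080, 3207 and 3866 in 3D bioink, 5051, 3757 and 3275 in 2D culture and 5770, 6247 and 6453 in tumours, and likewise did not pass between cultures (-0.23 ± 0.14, adjusted p 0.191). Rpl10 had 15048, 11028 and 13693 in 3D bioink and 21153, 15952 and 10919 in 2D culture, so that the culture libraries differed among themselves by a factor of 1.94 (adjusted p 0.352). Rpl12 fell by 0.31 ± 0.12 (adjusted p 0.048), a call lost under 13 of 22 alternatives (adjusted p between 0.00309 and 0.586). Without bioink library 2 or 3, 2D culture library 1 or 2, or tumour library 2, the adjusted p of Rpl12 was 0.129, 0.119, 0.175, 0.0705 and 0.064, in that order. Rps23, of the decoding centre, fell by 0.52 ± 0.20 (adjusted p 0.0473), lost under 15 of 22 alternatives (0.00047 to 0.218). The adjusted p of Rps23 was 0.148 and 0.144 without bioink library 2 and 3, 0.164 and 0.0854 without 2D culture library 1 and 2, and 0.0553, 0.0631 and 0.0555 without tumour library 1, 2 and 3. Rps25 fell by 0.81 ± 0.25 (adjusted p 0.0194), lost under 6 of 22 (0.00168 to 0.0752), among them without bioink library 2 (0.0675) and without 2D culture library 1 (0.0752).

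**Figure D3:**
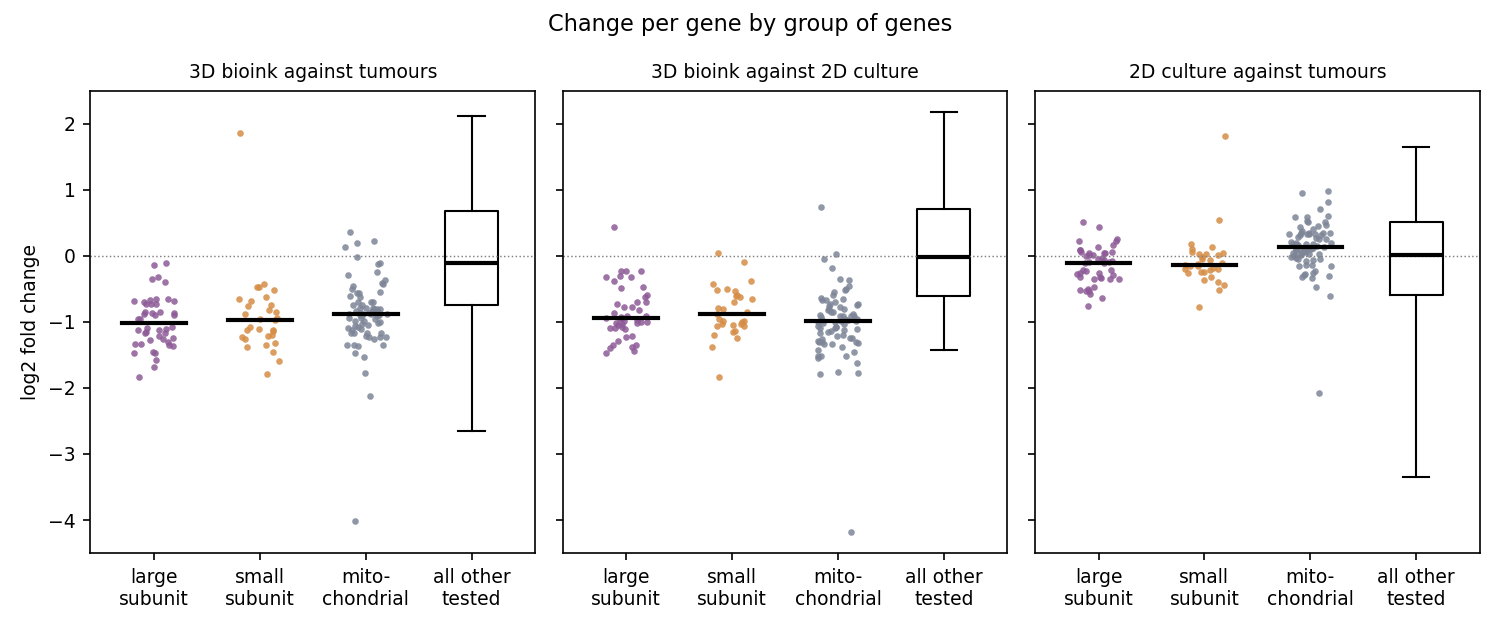
Log2 fold change per gene in 3 comparisons (panels), for the tested large subunit, small subunit and mitochondrial ribosomal protein genes (points, with the median as a bar) and for all other tested genes (box with quartiles, whiskers at the 5th and 95th percentiles). Medians of both cytoplasmic subunits lie at -1.02 to -0.88 in the comparisons with 3D bioink and at -0.14 to -0.10 in 2D culture against tumours.

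Between 2D culture and tumours the family's medians lay nearer to 0 than in the comparisons with 3D bioink, and more members fell than rose. In the large subunit 3 of 46 rose and 12 fell (median log2 fold change -0.10). In the small subunit 0 of 31 rose and 8 fell (median -0.14), and 9 were lower and 0 higher at an unadjusted p under 0.05. Over all tested genes limma called 27.3% higher and 27% lower, with a median of 0.01. The falls in both subunits were thus near the share of all tested genes, and the rises were below it. Among the 3511 other genes with a mean of at least 1000 the median was 0.13, with 1534 higher and 1047 (29.8%) lower. Under quantile normalization the counts were 5 higher and 7 lower for the large subunit and 1 higher and 6 lower for the small. Without 2D culture library 3 the medians were -0.045 for the large and -0.033 for the small subunit, and without 2D culture library 1 they were -0.20 and -0.23. Under equal totals, with and without the members counted, the large subunit median was -0.037 and -0.042.

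The 3 that rose were Rpl7, Rpl4 and Rpl9. Rpl7 rose by 0.52 ± 0.07 (limma adjusted p 0.000116). Rpl4, which lines the exit tunnel, had 18346, 17543 and 17740 in 2D culture against 15804, 14795 and 14562 in tumours, and rose by 0.25 ± 0.05 (adjusted p 0.00103). Rpl9 had 8664, 8000 and 7767 in 2D culture against 7203, 6978 and 6801 in tumours (0.22 ± 0.06, adjusted p 0.00837). Among small subunit members with a mean of at least 100, the highest log2 fold changes were those of Rps27l, Rps2 and Rps21, 0.55 ± 0.26 (adjusted p 0.103), 0.18 ± 0.08 (adjusted p 0.0871) and 0.14 ± 0.10 (adjusted p 0.246), and none passed. Rpl37a, with 0.44 ± 0.20, did not pass either (adjusted p 0.0889).

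Rps3 had the largest fall in 2D culture against tumours, 0.78 ± 0.11 (limma adjusted p 0.000197). Rpl12, at the base of the stalk, had 2440, 2022 and 1912 in 2D culture against 3051, 3692 and 4064 in tumours, a fall of 0.76 ± 0.12 (adjusted p 0.000455). Rpl5 fell by 0.63 ± 0.14 (adjusted p 0.00418), Rpl28 by 0.53 ± 0.09 (adjusted p 0.000652) and Rps20 by 0.51 ± 0.11 (adjusted p 0.00259). Of the stalk, Rplp1 fell by 0.48 ± 0.09 (adjusted p 0.00102). Rplp2 fell by 0.34 ± 0.08 (adjusted p 0.00376) and Rps4x by 0.24 ± 0.06 (adjusted p 0.00783), and under quantile normalization neither passed (adjusted p 0.434 and 0.608). Rplp0 fell by 0.29 ± 0.09 (adjusted p 0.0251), lost under 9 of 22 alternatives (0.00152 to 0.291). The adjusted p of Rplp0 was 0.0898 and 0.0503 without 2D culture library 1 and 2, and 0.0845 and 0.0669 without tumour library 2 and 3. Rpl23a fell by 0.52 ± 0.18 (adjusted p 0.0356), lost under 9 of 22 alternatives (0.00183 to 0.142). The adjusted p of Rpl23a was 0.0722 and 0.118 without 2D culture library 2 and 3, and 0.0868 and 0.113 without tumour library 2 and 3.

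**Figure D4:**
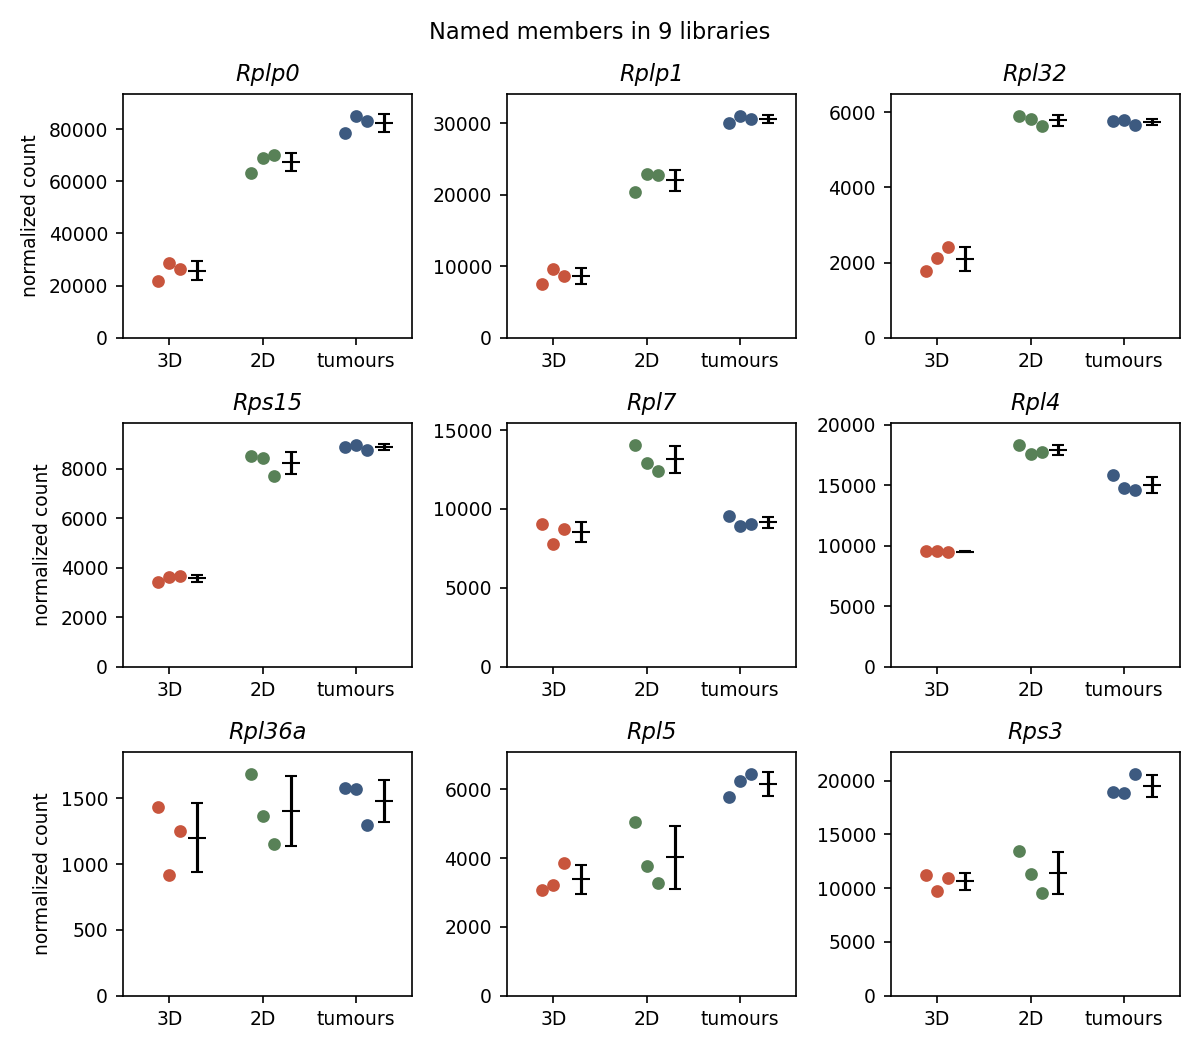
Normalized counts of 9 named members in 3D bioink (red), 2D culture (green) and tumours (blue), 1 point per library, with the group mean and SD (n = 3) as bars on axes that start at 0. Rplp0, Rplp1, Rpl32 and Rps15 are lowest in 3D bioink, Rpl7 overlaps between 3D bioink and tumours, and Rps3 and Rpl5 overlap between the cultures.

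To see which members departed from the rest of the family, each library was set to the median of its tested members and all genes were fitted again. In 3D bioink against tumours 9 large subunit members were then higher and 14 lower, and 4 small subunit members were higher and 8 lower, while over all tested genes 62.2% were higher and 8.66% lower. One of the small subunit members counted as higher is Rps4l, whose values are near 0 in some tumour libraries. The stalk was lower than the family median, with relative log2 fold changes of -0.89 for Rplp1 (limma adjusted p 0.000327), -0.74 for Rplp0 (adjusted p 0.00201) and -0.42 for Rplp2 (adjusted p 0.00108). Rpl7 was 0.84 higher (adjusted p 2.9e-06), Rpl36a 0.63 (adjusted p 0.00138), Rpl10a 0.59 (adjusted p 0.00284), Rpl4 0.29 (adjusted p 0.0187) and Rps6 0.29 (adjusted p 0.0125). Without tumour library 2 the higher members numbered 5 and 2, without tumour library 3 the small subunit also had 2, and the lower small subunit members were 4 without tumour library 1 and 5 without bioink library 3. In 3D bioink against 2D culture 13 large members were higher and 7 lower, and 9 small members were higher and 3 lower, against 65.1% and 4.51% of all tested genes. Rps3 stood 0.85 above the family median (adjusted p 1.32e-05), Rpl36a 0.72 (adjusted p 0.000608), Rpl5 0.71 (adjusted p 0.000502) and Rpl10 0.71 (adjusted p 0.00179), and Rpl32 lay at -0.52 (adjusted p 0.00325). Without bioink library 3 or 2D culture library 2 or 3, only 1 small member was lower. These counts depended on the centre: with the members' mean in place of their median 5 small members were higher, and with the large subunit median 3 small members were higher, and 12 large and 5 small members lower. In 2D culture against tumours 3 large members were higher and 12 lower, and 0 small members were higher (1 at an unadjusted p under 0.05) and 6 lower, against 24.7% and 24% of all tested genes. Centred on the members' mean, 6 large members were higher and 5 lower, with 3 small members higher and 4 lower, and centred on the large subunit median the counts were 5, 5, 3 and 4. Centred on the family median, the 3 became 1 without bioink library 3, 2D culture library 2 or 3, or tumour library 2 or 3, and 2 without tumour library 1, and the 12 became 8 without tumour library 1 or 3.

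Base composition and transcript length were compared with the log2 fold changes. Over the 74 members with a mean of at least 100, the G and C share of the principal transcript (41.3% to 60.8%, GENCODE vM21) had a Spearman rho of -0.39 and a Pearson r of -0.38 with the log2 fold change in 3D bioink against tumours. The rho was -0.36 (r -0.38) for 3D bioink against 2D culture and -0.02 (r -0.02) for 2D culture against tumours. Transcript length had a rho of 0.09, 0.27 and -0.21 in the same order, with r values of 0.04, 0.30 and -0.32. All points come from the same 9 libraries, so these values are a description. Between libraries of a group, the ratio of the highest to the lowest value had a median over the 74 members of 1.29 in 3D bioink, 1.21 in 2D culture and 1.101 in tumours, and 67 of the 74 were higher in 2D culture library 1 than in 2D culture library 3.

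A list of 7 further ribosomal protein genes whose symbols fall outside the rule was kept apart, and it is not complete, since Rps3a1 is not on it. In 3D bioink against tumours 5 of these 7 fell and 0 rose, also at an unadjusted p under 0.05 (median -1.236). Of all tested genes 37.3% were lower and 27.1% higher. Rack1, a scaffold on the head of the small subunit, had 12606, 12110 and 11804 in 3D bioink, 25165, 25376 and 24868 in 2D culture and 32273, 31894 and 32146 in tumours. It fell by 1.40 ± 0.04 against tumours (limma adjusted p 4.98e-09) and by 1.05 ± 0.04 against 2D culture (adjusted p 5.26e-08), and the groups did not overlap. Fau, the precursor of the small subunit protein eS30, fell by 1.23 ± 0.26 (adjusted p 0.00198), Rpsa, of the small subunit, by 1.236 ± 0.23 (adjusted p 0.000968), Rpl36al by 0.86 ± 0.10 (adjusted p 4.78e-05) and Rpl7l1 by 0.68 ± 0.05 (adjusted p 3.14e-06), all against tumours. Rpl22l1 was listed at 0 in all bioink libraries against 23, 22 and 0 in tumours, and it did not pass. Against 2D culture 4 of the 7 fell and 0 rose in 3D bioink, also at an unadjusted p under 0.05, against 32.2% and 27% of all tested genes. In 2D culture against tumours 1 of the 7, Rpl7l1, rose (0.21 ± 0.05, adjusted p 0.00837), and 2, Rack1 and Fau, fell. These counts are near the shares of all tested genes, 27.3% higher and 27% lower.

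The lists of genes that make or use the ribosome are read against all tested genes, of which 37.3% were lower and 27.1% higher in 3D bioink against tumours, 32.2% and 27% against 2D culture, and 27% and 27.3% in 2D culture against tumours. Of 77 mitochondrial ribosomal protein genes, which encode the separate ribosome of the mitochondria, 64 fell and 1 rose against tumours (median -0.88). Against 2D culture 69 fell and 0 rose (1 at an unadjusted p under 0.05; median -0.98), and in 2D culture against tumours 20 rose and 3 fell (median 0.13). Of 35 ribosome biogenesis genes 21 fell and 8 rose in 3D bioink against tumours (median -0.30), 29 fell and 1 rose against 2D culture (median -0.92), and 23 rose and 0 fell in 2D culture against tumours, also at an unadjusted p under 0.05 (median 0.45). Rrp9, a component of the U3 particle that processes rRNA, had 537, 713 and 671 in 3D bioink, 2320, 2242 and 2193 in 2D culture, and 1666, 1829 and 1875 in tumours, a fall of 1.49 ± 0.10 against tumours (limma adjusted p 1.01e-06). Ncl, the nucleolar protein nucleolin, rose, with 2623, 2070 and 2514 in 3D bioink against 1112, 1201 and 1202 in tumours (1.03 ± 0.10, adjusted p 1.1e-05). Wdr43 had the largest rise of this list in 2D culture against tumours (1.36 ± 0.20, adjusted p 0.000215). Of 11 RNA polymerase I genes 7 fell and 1 rose in 3D bioink against tumours, with Polr1e lowest (-0.99 ± 0.11, adjusted p 3.94e-05). The riser, Taf1d, was listed at 7, 113 and 33 in 3D bioink against 6, 0 and 0 in tumours. Against 2D culture 7 of the 11 fell and 0 rose, also at an unadjusted p under 0.05, and 4 rose and 0 fell in 2D culture against tumours (6 and 0 unadjusted).

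Of 18 elongation factors and other TOP mRNAs 15 fell and 0 rose in 3D bioink against tumours, with 16 and 0 at an unadjusted p under 0.05 (median -0.66). Eif3k had the lowest value (-1.46 ± 0.15, limma adjusted p 2.02e-05). Against 2D culture 15 fell and 1 rose, and in 2D culture against tumours 8 rose and 4 fell. Tpt1, a classic TOP mRNA, had 19276, 17385 and 17960 in 3D bioink, 17589, 17392 and 17159 in 2D culture, and 36226, 40946 and 41883 in tumours. It fell by 1.12 ± 0.06 (adjusted p 2.98e-07) and 1.19 ± 0.06 (adjusted p 1.96e-07) in the 2 cultures against tumours and overlapped between the cultures. Eif3e rose by 0.62 ± 0.08 in 2D culture against tumours (adjusted p 8.38e-05).

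Of 20 initiation factors 14 fell and 4 rose in 3D bioink against tumours (median -0.46), and 12 rose and 3 fell in 2D culture against tumours (median 0.43). Against 2D culture 15 fell and 1, Eif5b, rose in 3D bioink. Eif3d had 3653, 4184 and 4013 in 3D bioink against 10456, 11205 and 10451 in tumours (-1.44 ± 0.06, limma adjusted p 3.51e-08), and Eif5b, which joins the subunits, had 943, 998 and 986 in 3D bioink against 297, 395 and 502 in tumours (1.32 ± 0.16, adjusted p 5.91e-05). In 2D culture against tumours Eif2s3x rose by 1.22 ± 0.08 (adjusted p 8.41e-07) and Eif6, which keeps the subunits apart, fell by 0.39 ± 0.08 (adjusted p 0.00209). Eif6 also fell in 3D bioink against tumours, by 1.26 ± 0.08 (adjusted p 5.9e-07). Of 18 genes of mTOR, S6 kinase, TOP regulation and Myc, 16 were tested. In 3D bioink against tumours 3 rose and 7 fell, in 3D bioink against 2D culture again 3 rose and 7 fell, and in 2D culture against tumours 5 rose and 4 fell, shares near those of all tested genes. Larp4, which binds poly(A) tails, rose by 1.36 ± 0.10 in 3D bioink (adjusted p 2.21e-06) and 1.28 ± 0.10 in 2D culture (adjusted p 3.75e-06) against tumours. Max, the partner of Myc, fell by 1.05 ± 0.10 in 3D bioink (adjusted p 1.19e-05) and 0.61 ± 0.10 in 2D culture (adjusted p 0.000626) against tumours. Pdcd4, an inhibitor of Eif4a, fell by 0.67 ± 0.24 in 2D culture against tumours (adjusted p 0.0418).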

How the data were processed

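Bulk RNA was measured in 9 libraries, 3 each of 3D bioink, 2D culture and tumours. Libraries were made with a directional kit from 25 to 75 ng of RNA with 14 PCR cycles and loaded in triplicate, per the labels' protocols. Each value in the deposited table is a score, namely a normalized count, made whole by the authors' rounding. The tools named are DESeq and DESeq2 1.24.0, RSEM and kallisto, with the build mm10, per the submitters' processing notes, in roles not given in the sources used here. Since the values are not raw counts, no count model was run, and no counting interval or floor is given.

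Here log2(value + 1) of the 13773 symbols with a mean of at least 10 (of 20778, of which 2865 were 0 throughout) entered one limma fit (3.58.1, R 4.3.3; eBayes with trend) of 9 libraries, with Benjamini-Hochberg adjustment over all of them, a threshold of 0.05 and two-sided tests. Fold changes are on this scale, which understates those of low genes. A second fit was made relative to the median of the tested members of each library. Only the first fit was tested on simulated data, for 3D bioink against tumours. The simulation had independent noise and few changed genes, unlike the data. Shares are sums divided by deposited totals. Named members are the 3 highest and 3 lowest of each subunit and comparison with a mean of at least 100, the paralogs and a set picked by role; of each list, the highest and lowest member past the threshold against tumours. Rpl9 and Rps12 were named after their values were seen. Some genes that this rule names are not reported here. Gene positions, and start windows credited to RefSeq, are GRCm38.p6, the build also called mm10, and transcript lengths and base composition are from GENCODE vM21. The members and lists were chosen with earlier results of these data known. Alternatives covered the pseudocount, the filter, 5 scalings, the libraries in the fit, weights and the prior. Python 3.11.15, pandas 2.3.3 and matplotlib 3.10.9 were used.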

Additional observations from a re-analysis of the deposited data

How the results depend on the processing

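Depth is unknown, so low members are limited most. The medians of 3D bioink against tumours (large, small subunit) were -0.68 and -0.71 under quantile normalization, -0.78 and -0.74 under equal upper quartiles, -0.92 and -0.88 under equal median of ratios, -0.75 and -0.71 under equal totals, and -0.78 and -0.74 under equal totals without the members. The large subunit median was -1.08 with no filter, and the small subunit median -1.08 without paralogs. Against 2D culture they were -0.65 and -0.70 (quantile), -0.72 and -0.65 (upper quartiles), -0.75 and -0.68 (totals), and -0.77 and -0.70 (totals without members). The small subunit median of 2D culture against tumours was -0.043 under quantile normalization. The median of all tested genes was 0.12 (upper quartiles), 0.14 (totals) and 0.11 (totals without members) in 3D bioink against tumours, and 0.20, 0.17 and 0.14 against 2D culture; it was 0.18 in 2D culture against tumours under quantile normalization.

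Counts moved as follows. Under quantile normalization 1 large subunit member, Rpl7, rose in 3D bioink against tumours (0.30), and in 2D culture against tumours 5 large members rose, 7 fell and 1 small member rose. Equal totals, with or without the members, and array weights also gave 1 small riser there, and fitting only the 2 groups gave 2. In 3D bioink, array weights gave 1 small riser against tumours, and both array weights and upper quartiles gave 1 large riser against 2D culture. Centred on the members' mean, 6 large members were higher, 5 lower and 3 small members higher in 2D culture against tumours, and 5 small members higher in 3D bioink against 2D culture. Centred on the large subunit median, these were 5, 5, 3 and 3, and in 3D bioink against 2D culture 12 large and 5 small members were lower.

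Leaving out each library gave, for 3D bioink against tumours, small subunit medians of -1.06 to -0.92 and 0 to 1 small risers; relative to the family median 5 to 9 large and 2 to 6 small members were higher and 4 to 9 small members lower. For 2D culture against tumours it gave 0 to 1 small risers, a small subunit median of -0.23 to -0.033, and, relative, 1 to 4 large and 0 to 1 small members higher. For 3D bioink against 2D culture the small subunit median was -1.004 to -0.82, with 1 to 4 small members lower relative to the family median. The causes were not tested.

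Of 72 called values of named members, 58 passed in all alternatives run. Over all tested genes, same-numbered libraries of different groups deviated with correlations of -0.03 to 0.08 over 9 pairs. Differently numbered ones had -0.06 to 0.05 over 18 pairs. Over the members alone the ranges were -0.53 to 0.24 and -0.73 to 0.70. The values show no pairing by number, but with 3 libraries per group they cannot exclude it. With the replicate block 43 large and 27 small subunit members fell in 3D bioink against tumours.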

Other observations

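Rows for near copies of members sit beside them in the table. Rpl17-ps8 was listed at 0, 50 and 198 in 3D bioink, 2, 1321 and 2631 in 2D culture and 1728, 1908 and 2431 in tumours. Rpl17 itself had 2563, 3215 and 3047 in 3D bioink, 6640, 4729 and 3383 in 2D culture, and 5886, 5422 and 5123 in tumours. The sums of both rows were 6642, 6050 and 6014 in 2D culture, so the coefficient of variation among 2D culture libraries was 5.66% for the sum and 33.3% for Rpl17 alone. In tumours it was 2.00% for the sum and 7.02% for Rpl17 alone, and in 3D bioink 13.2% for the sum and 11.5% for Rpl17 alone. Rpl14-ps1 held 57.3% of the summed value of Rpl14 and its copy in 3D bioink, 64.5% in 2D culture and 60.4% in tumours. Rps3a1, the row for the small subunit protein eS1, lies outside the symbol rule and had 6673, 5547 and 5951 in 3D bioink, 10125, 9540 and 8784 in 2D culture and 8715, 9249 and 9538 in tumours. It fell by 0.60 ± 0.08 (SE) on the log2 scale in 3D bioink against tumours (limma adjusted p 8.2e-05). These rows were singled out after their values were seen.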
